A study of Drosophila melanogaster with 23 samples.

Results

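Among the stretches of the Drosophila melanogaster genome bound by Bicoid (Bcd), Caudal (Cad), Dorsal (Dl) and Twist (Twi) together, 185 of 8450 did not overlap a region bound by Zelda (Zld), which is 2.19%. A four-factor stretch is at least 50 bp that an interval covered in all 12 deposited lists of these 4 factors, on X, 2L, 2R, 3L, 3R or 4. A Zld region is at least 50 bp covered in all 3 Zld lists, and a stretch counted as without Zld when it shared no base with one. The count depends on single lists: without Dl list 2 it was 286, and without each of the other 14 lists between 139 and 262. The other 8265 four-factor stretches are called stretches with Zld. The members were thus chosen by the intervals of these 15 lists, and their widths, strengths and Zld coverage are given as descriptions, with no test.

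All libraries came from wild-type Oregon-R embryos 2 to 3 h after egg laying, pooled from population cages and fixed whole, so nuclei from every part of the embryo were measured together. ChIP-nexus, an immunoprecipitation in which an exonuclease trims bound fragments close to the protein, has 3 libraries each for Bcd, Cad, Dl, Twi, GAGA factor (GAF) and Zld. The histone marks H3K4me1 and H3K27ac have 2 ChIP-seq libraries each, and the whole cell extract was not used here. Nothing in the labels says that libraries of a group came from separate collections, so a p-value over libraries measures only the spread between them.

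Bcd and Cad are homeodomain factors of the anteroposterior axis, Bcd high toward the anterior pole and Cad toward the posterior. Dl and Twi are graded along the dorsoventral axis, with Dl the nuclear effector of Toll signalling and Twi a bHLH factor of the mesoderm. Zld, a pioneer factor of zygotic genome activation, and GAF, which binds GA repeats, can both make chromatin accessible. H3K27ac marks active enhancers and promoters, and H3K4me1 marks enhancers.

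Stretches without Zld were rarer the more patterning factors had to be present. Each added factor also adds 3 lists that must cover the stretch. The number of factors and the number of lists therefore cannot be told apart here. Of the regions covered in all 3 lists of 1 factor, 44.0% of 31776 for Bcd, 43.5% of 31872 for Cad, 21.3% of 15685 for Dl and 49.0% of 35570 for Twi lay outside Zld regions. Bcd and Cad together left 15.4% of 16310 outside, and Dl and Twi together 10.3% of 11269. With 3 factors the shares were between 3.44% for Bcd, Cad and Dl and 8.13% for Bcd, Cad and Twi. Sets of regions that required Dl had the lower shares: Dl was lowest alone, and each 3-factor set with Dl was below the one that left Dl out. Dl also had the fewest regions of the 4 factors.

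**Figure D1:**
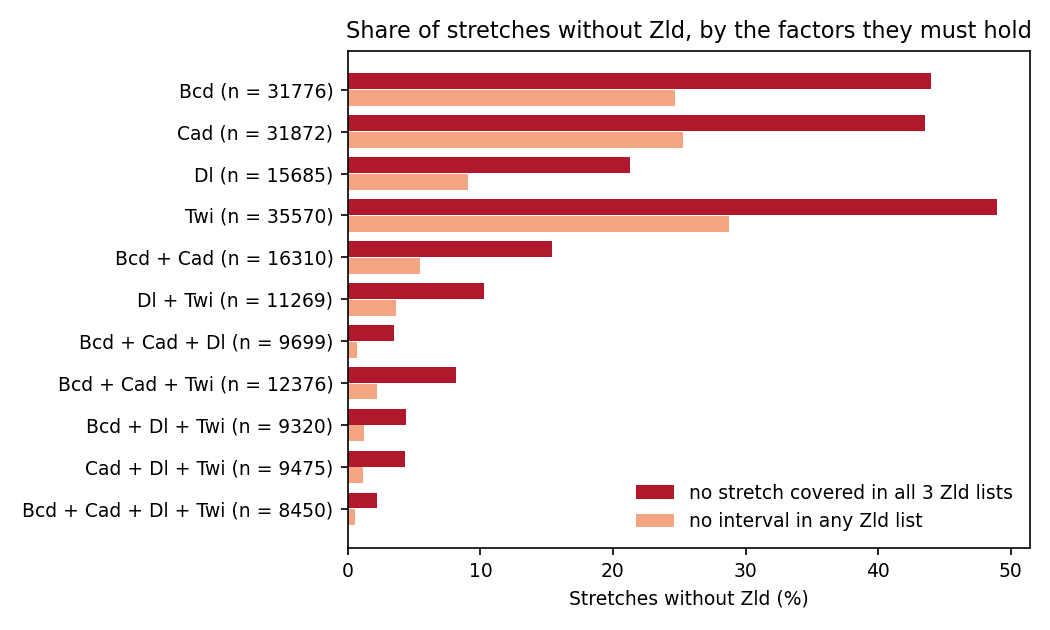
Share of stretches of 50 bp or more (horizontal axis, %) that lay outside Zld regions (red) or had no interval in any single Zld list (orange), by the factors required (rows, with the number of stretches). The share outside Zld regions was 21.3% to 49.0% with 1 factor required and 2.19% with all 4.

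Lacking a reproducible Zld region did not mean lacking every Zld interval. An interval of Zld list 1 overlapped 95 of the 185 members, of list 2 69, and of list 3 73. By number of lists, 42 members were in none, 51 in 1, 90 in 2 and 2 in all 3 (there the cover shared by the lists was under 50 bp). The 42 with no interval in any Zld list are 0.497% of all four-factor stretches, and all other members had an interval in at least 1 list. The Zld intervals at members lay near the middle of their lists, below those at stretches with Zld. Percentile here means the place of the strongest overlapping interval among the intervals of its list by −log10 p, with 100 the strongest. The median Zld percentiles at members were 54.3, 47.1 and 49.5 in lists 1, 2 and 3, against 89.1, 89.5 and 90.9 at stretches with Zld. At 9 members the Zld percentile was at least 90 in 1 list and at 6 in 2 lists, with a highest value of 99.4.

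Most members lay within 2000 bp of a Zld region. The distance to the nearest one ranged from 5 to 9108 bp, with a median of 669 bp. It was within 50 bp for 13 members, within 200 bp for 41, within 500 bp for 76 and within 2000 bp for 136. The arms held 30713 Zld regions, and the same distances were not measured for other sequence. Closeness to Zld regions is thus not shown to be a trait of the members. In 47 members, an interval of some patterning factor list also covered a four-factor stretch with Zld. In those lists the member is part of a longer interval, but 0 members shared the interval of every list in this way. The remaining 138 members shared no interval with a stretch with Zld.

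The members were narrow. Their median width was 124 bp (quartiles 89 and 161 bp, range 50 to 320 bp), against 218 bp at stretches with Zld (quartiles 152 and 323 bp, up to 1858 bp). Of the members, 68 were under 100 bp, 95 were 100 to under 200 bp and 22 were 200 bp or wider. Around the minimum of 50 bp, 12 stretches without Zld were 50 to 59 bp wide and 12 were 40 to 49 bp and so left out. The intervals behind a member were also shorter, with a median mean width of 394.7 bp against 499.6 bp. The widest member, 2L:18817875-18818194 in dm6, lay 1149 bp from Ugt36F1 and spanned 320 bp. The next were X:12383903-12384198, 6147 bp from Ir11a (296 bp), X:52671-52953, more than 10 kb from any protein-coding gene (283 bp), 2L:14314795-14315067 in wb, a laminin gene (273 bp), and 2L:18144437-18144708 in Socs36E, an inhibitor of JAK/STAT signalling (272 bp). None of these 5 lay within 500 bp of a gene end.

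Patterning factor binding at members ranked below that at stretches with Zld, for every factor. The median percentile at members was 77.6 ± 2.64 for Bcd (SD, n = 3 lists), against 86.3 ± 1.83 at stretches with Zld. For Cad it was 74.5 ± 1.95 against 85.7 ± 1.19. For Dl it was 82.3 ± 4.94 against 89.2 ± 1.30, and for Twi 76.3 ± 3.08 against 83.8 ± 1.47. In each of the 12 lists the median at members was the lower one. A percentile of at least 90 in all 12 lists was found at 1 of 185 members (0.541%) and at 647 of 8265 stretches with Zld (7.83%). At 39 members (21.1%) some list gave a percentile under 10, so a member can rest on an interval that was weak in 1 library. This was not counted at stretches with Zld.

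**Figure D2:**
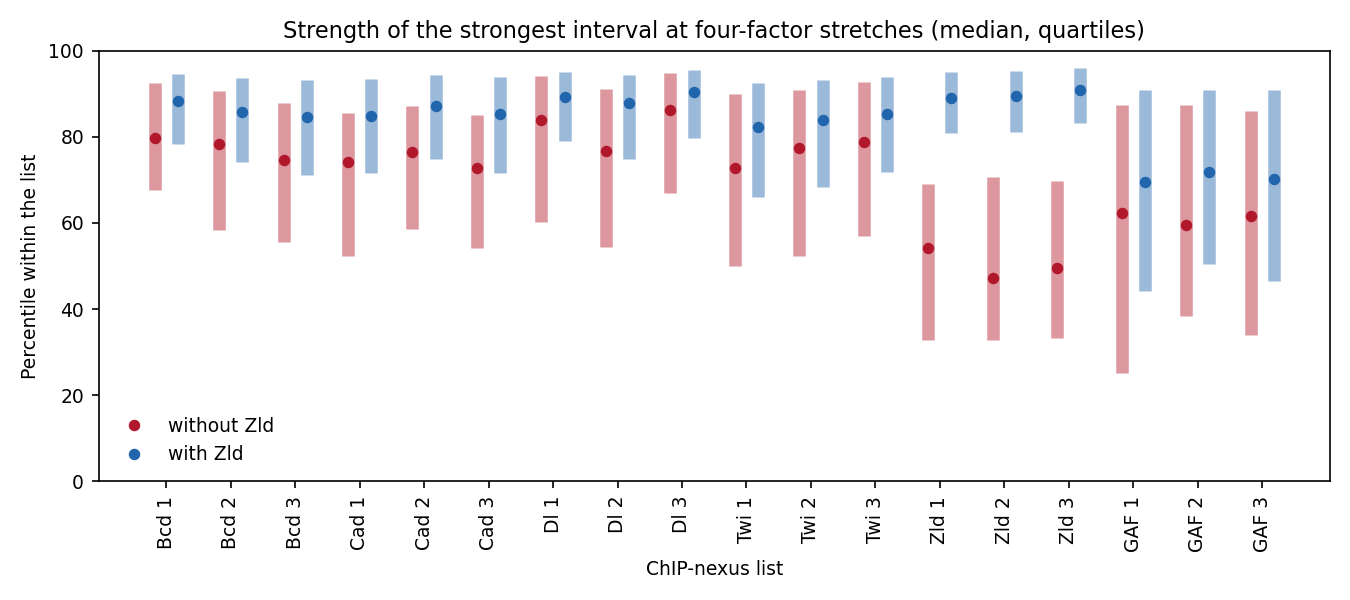
Percentile of the strongest overlapping interval in each of the 18 ChIP-nexus lists (vertical axis, 100 the strongest of the list) at stretches without Zld (red) and with Zld (blue). Points are medians and bars run between the quartiles, over the stretches that an interval of the list overlapped. The Zld medians without Zld lie near the middle of the lists, at 47.1 to 54.3, and the patterning factor medians between 72.7 and 86.1.

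No one factor led. The factor with the highest mean percentile was Dl at 58 members, Twi at 49, Bcd at 46 and Cad at 32. The factors' percentiles were only loosely related across members, with Spearman's rho between 0.18 for Bcd and Twi and 0.33 for Bcd and Dl (n = 185), against 0.30 and 0.47 at stretches with Zld (n = 8265). These are descriptions over stretches, which share the libraries and the lists' lengths. The distance between the outermost factor summits had a median of 123 bp at members and 119 bp at stretches with Zld. All 12 summits fell inside the stretch at 22 members (11.9%), and 0 of them at 8 members (4.32%). These 2 counts were not made at stretches with Zld, which are wider.

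The best-ranked member over the 12 lists was 3L:21298370-21298450, 224 bp from CG43702 and within 500 bp of a gene end. Its Bcd percentiles were 99.4, 99.2 and 99.0, Cad 94.7, 95.2 and 95.0, Dl 98.5, 95.5 and 98.5, and Twi 96.4, 96.0 and 96.5. It is the only member at 90 or above in all 12 lists. However, 0 of the 12 summits of these intervals lay inside the 81 bp stretch, and the intervals had a mean width of 872 bp. These percentiles thus belong to intervals with their summits outside the member. A Zld region lay 6 bp away, and Zld list 1 gave an interval at percentile 91.3, list 3 one at 14.7 and list 2 none. It lay in an H3K27ac region.

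The second and the fifth, 3R:14817545-14817678 and 3R:14817447-14817499, are neighbours in btsz, a synaptotagmin-like gene, and their percentiles are the same in 11 of the 12 lists because they fall in the same intervals. Of their 12 summits, 1 lay inside the second member and 0 inside the fifth. Both members lay in H3K27ac and H3K4me1 regions. Their Dl percentiles were 99.3, 98.9 and 99.4 at the one and 99.3, 98.9 and 87.9 at the other, and Bcd reached 97.7, 98.1 and 61.4 at both. Members are thus not independent of each other, and 3 pairs (6 members) share a deposited interval.

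Among the 12 best-ranked, several had no interval in any Zld list. The fourth, 3R:20848840-20849073, 1091 bp from CG15696, had Bcd at 99.3, 99.2 and 99.3, Dl at 99.0, 98.2 and 99.0, Cad at 88.3, 85.7 and 91.2, and Twi at 91.8, 92.5 and 90.2. It lay in no mark region, though list 1 of each mark had an interval there. The seventh, 2L:7011108-7011326, 748 bp from uif, was at 99.3 in every Cad list and at 99.7, 99.6 and 99.7 for Dl. The ninth, 3L:14278855-14279044 in fz, the Frizzled receptor of Wnt and planar polarity signalling, was at 99.1, 99.2 and 99.1 for Bcd and 71.8, 71.0 and 83.4 for Twi. The eleventh, 3L:15953679-15953891 in the protein kinase gene Pka-C3, had the opposite order, with Twi at 99.2, 99.3 and 99.4 and Bcd at 73.8, 78.0 and 80.3. The twelfth, 3R:23921215-23921482 in sba, was lower and more even, with Dl at 98.0, 95.9 and 97.7 and Bcd at 84.8, 82.2 and 83.1. Of these 5, all but the one near CG15696 lay in H3K27ac regions, and none overlapped a GAF interval. The sixth, 3R:23130350-23130600 in hh, the Hedgehog ligand, had Cad at 98.1, 98.2 and 98.0 but Bcd at 99.8, 89.3 and 86.8, and Zld intervals at 66.6 in list 1 and 92.1 in list 3.

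**Figure D3:**
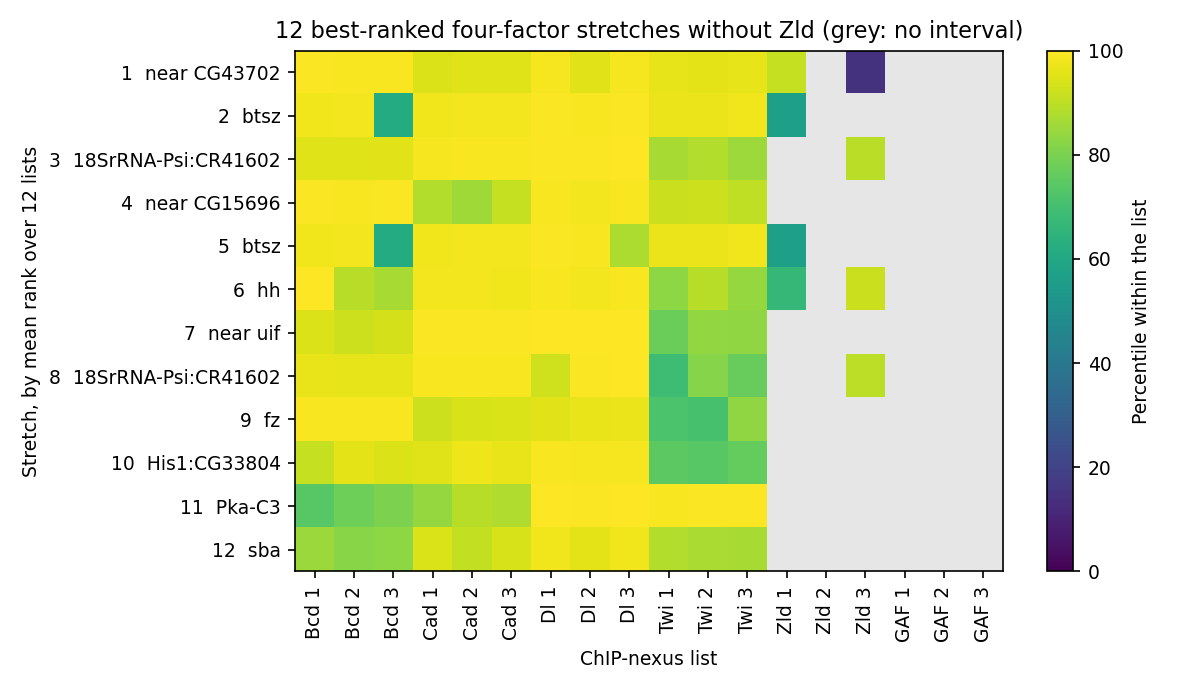
Percentile within each of 18 ChIP-nexus lists (columns, color scale from 0 to 100) at the 12 best-ranked four-factor stretches without Zld (rows, named by the gene they overlap or the nearest one). Grey cells have no interval. The GAF columns are grey in all 12, and a Zld interval is present in 6 of the 12.

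Repeated genes supplied some of the top of this order. The third and the eighth members lay in 18SrRNA-Psi:CR41602, a ribosomal RNA pseudogene on X, at X:23212889-23213109 and X:23211202-23211331. The tenth was 2L:21426897-21427046 in the histone gene His1:CG33804. Within 2 kb of the 110 histone repeat genes there were 4 of the 185 members and 52 of the 8265 stretches with Zld, a larger share of the members. All 4 were among the 42 members with no interval in any Zld list. In all, 11 of the 185 members lay within 2 kb of histone, rRNA, tRNA or Stellate genes, against 164 of the 8265 stretches with Zld. This too is a larger share of the members. Among the 11 are members at the copies tRNA:Thr-AGT-1-1 and tRNA:Thr-AGT-1-2. Reads from such near-identical copies cannot be placed with certainty, so the values of these members are uncertain. Without the 11 there are 174 members.

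GAF was less frequent at stretches without Zld. A GAF region, covered in all 3 GAF lists, overlapped 38 of the 185 members, or 20.5% (exact binomial 95% interval 15.0% to 27.1%), against 4581 of 8265 stretches with Zld, or 55.4% (54.3% to 56.5%). Over all four-factor stretches the share was 54.7%. In GAF lists 1, 2 and 3 alone, 24.3%, 28.1% and 27% of members were overlapped, against 59.8%, 66.5% and 62.9% of stretches with Zld. The difference was −36.6 ± 1.57 percentage points (SD, n = 3 lists), lower at members in 3 of 3 lists. The exact two-sided sign-flip permutation test gave p = 0.25, the smallest it allows with 3 lists, so this design cannot reach 0.05. No GAF list overlapped 125 members (67.6%), against 2432 stretches with Zld (29.4%).

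Width moved with this difference, since GAF overlapped 41.3% of stretches with Zld under 100 bp and 59.5% of those 200 to under 400 bp wide. The corresponding shares at members were 20.6% of 68 under 100 bp and 22.7% of 22 of 200 bp or wider. Reweighted to the widths of the members, a comparison chosen after seeing the data, stretches with Zld had 45.1%, still above the 20.5% of members. Intervals cover counting error only, and stretches are not replicates of a condition.

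**Figure D4:**
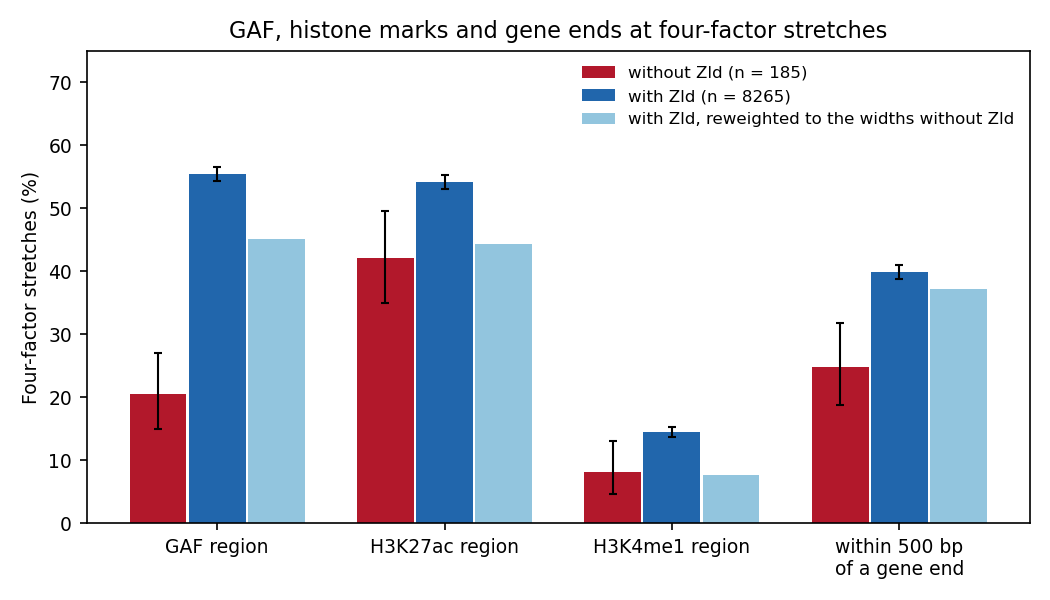
Share of four-factor stretches (vertical axis, %) that overlap a GAF, H3K27ac or H3K4me1 region or have their midpoint within 500 bp of a gene end, without Zld (red), with Zld (dark blue) and with Zld after reweighting to the widths of the stretches without Zld (light blue). Bars are shares and error bars exact binomial 95% intervals, which cover counting error only. The GAF bars are the farthest apart, at 20.5%, 55.4% and 45.1%, and the H3K4me1 bars differ least after reweighting, at 8.11%, 14.4% and 7.67%.

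The members with the strongest GAF binding were 2R:13502054-13502166, in drk (the Grb2-type adaptor of receptor tyrosine kinases) and mars, with GAF percentiles of 98.5, 98.7 and 98.3, and 3L:9137741-9137898 in nwk, with 98.2, 98.8 and 98.1. The one in drk and mars had a Zld list 1 interval at 98.2 and lay 15 bp from a Zld region. They were followed by members in Tab2 (95.8, 97.4 and 97.2), beta-Spec, the beta chain of spectrin (96.4, 96.9 and 95.8), LBR, a lamin B receptor (97.2, 95.8 and 96.2), lolal, a BTB protein known to interact with GAF (96.2, 95.6 and 94.9), CG2991 (95.3, 95.0 and 95.0) and sqh, the myosin regulatory light chain (93.9, 93.4 and 93.1). The members in beta-Spec and lolal had no Zld interval in any list. The lolal member also held strong Twi binding, at 99.8, 99.7 and 99.8, while beta-Spec had Twi at 19.7, 34.8 and 37.6. Over all 38 members with GAF, the median Twi percentile was 87.8 ± 2.46 (SD, n = 3 lists), against 73.4 ± 3.22 over the 147 without. For Cad the median was 79.0 ± 2.05 over members with GAF, against 72.0 ± 1.35 over those without, higher in each of the 3 lists, as for Twi. For Bcd these were 76.9 ± 3.44 and 77.7 ± 2.59, with no common direction over the lists. For Dl they were 79.6 ± 4.47 and 83.0 ± 4.66. That gap is smaller than the SD, but Dl was lower with GAF in each of the 3 lists.

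H3K27ac regions, covered in both lists of that mark, overlapped 78 members, or 42.2% (35.0% to 49.6%), against 54.1% (53.0% to 55.2%) of stretches with Zld and 53.9% of all four-factor stretches. In the single lists the shares were 44.3% and 43.8% at members, against 56.7% and 56.4% at stretches with Zld. The mean difference was −12.5 ± 0.18 points (SD, n = 2 lists), lower in 2 of 2, and the exact sign-flip permutation p of 0.5 is the smallest that 2 lists allow. This difference depends on how overlap is read: with the midpoint of the stretch in the mark region, the shares were 38.4% at members and 34.0% at stretches with Zld. Reweighted to the members' widths, stretches with Zld had 44.4%, which lies inside the interval of the members. The direction differed by width. Under 100 bp, H3K27ac overlapped 50.0% of members against 40.9% of stretches with Zld. At 100 to under 200 bp these were 35.8% and 44.3%. They were 45.5% of members of 200 bp or wider and 59.0% of stretches with Zld of 200 to under 400 bp. The 95% intervals overlapped in each class.

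H3K4me1 regions were sparse at both. They overlapped 15 members, or 8.11% (4.61% to 13.0%), against 14.4% (13.7% to 15.2%) of stretches with Zld, and 14.3% of all. The 2 lists of this mark differed in length, and the single lists gave 26.5% and 14.6% of members, against 37.0% and 19.1% of stretches with Zld. The mean difference was −7.52 ± 4.24 points (SD, n = 2 lists; exact sign-flip permutation p = 0.5, the smallest possible). With stretches with Zld reweighted to the members' widths, their share was 7.67%, and the difference was +0.44 points. Here too the direction differed by width. Under 100 bp the shares were 10.3% of members and 4.82% of stretches with Zld. At 100 to under 200 bp they were 5.26% and 8.24%. For members of 200 bp or wider and stretches with Zld of 200 to under 400 bp they were 13.6% and 15.1%. The 95% intervals overlapped in each class. Both marks were found at 12 members (6.49%) and at 10.3% of stretches with Zld, with 10.2% of all. Neither mark was found at 104 members (56.2%) and at 41.7% of stretches with Zld.

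The best-ranked members in both marks were the btsz pair and the members in Socs36E, sli, the Slit guidance ligand, at 2R:15891553-15891710, and Pen, an importin alpha, at 2L:10057271-10057359. The sli member had no Zld interval in any list, Twi at 96.6, 97.3 and 97.4, and Cad at 43.7, 99.2 and 58.1. The best-ranked in regions of neither mark were those on the rRNA pseudogene, near CG15696, at His1:CG33804 and near Ir11a. Single lists did overlap some of these. The CG15696 member had an interval in list 1 of each mark. The His1:CG33804 member and X:23212889-23213109 on the pseudogene had one in H3K4me1 list 2. The Ir11a member had a Zld list 3 interval at 94.3, with no interval in lists 1 and 2, and Bcd at 96.9, 96.8 and 96.5.

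Within the members, H3K27ac was more frequent close to Zld regions. It overlapped 45 of 76 members (59.2%, 47.3% to 70.4%) within 500 bp of a Zld region, 23 of 60 (38.3%, 26.1% to 51.8%) at over 500 to 2000 bp and 10 of 49 (20.4%, 10.2% to 34.3%) farther away. It also went with strength. Ordered by mean rank into groups of 46, 46, 47 and 46 members, from the best to the lowest, it overlapped 60.9%, 45.7%, 40.4% and 21.7%. GAF overlapped 17.4%, 34.8%, 12.8% and 17.4% of the same groups, with no steady order. Members in a GAF region were in an H3K27ac region in 22 of 38 cases (57.9%, 40.8% to 73.7%), against 56 of 147 (38.1%, 30.2% to 46.5%) of those without GAF. Members with no interval in any Zld list did not stand apart in these shares: H3K27ac overlapped 45.2% of the 42 (29.8% to 61.3%) and GAF 16.7% (6.97% to 31.4%). These splits use intervals of the same lists as the members, and no test was made of them.

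**Figure D5:**
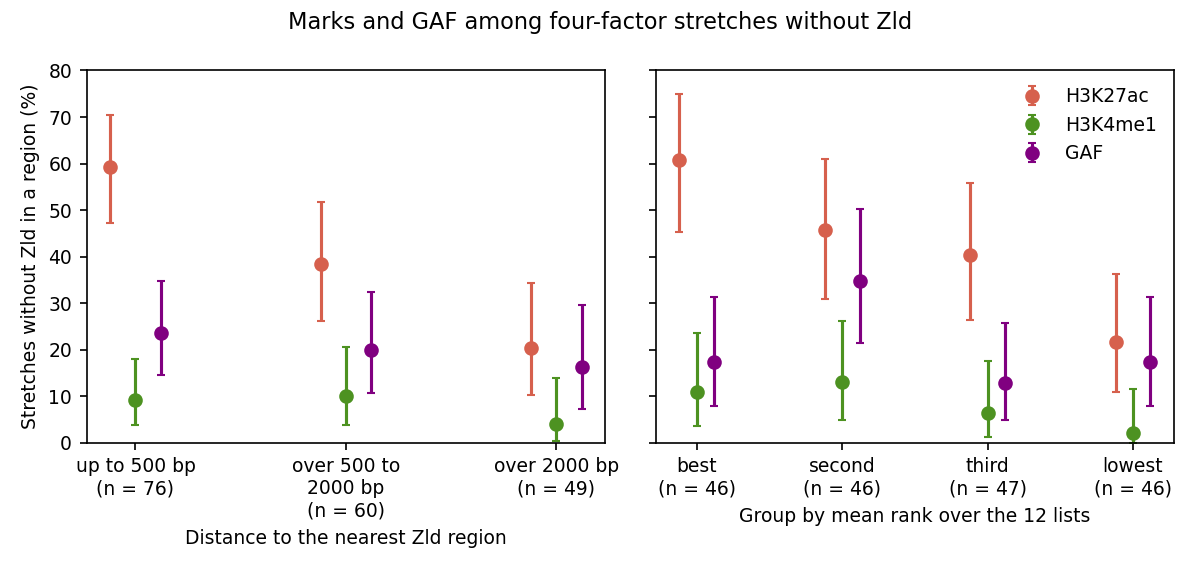
Share of four-factor stretches without Zld (vertical axis, %) that overlap an H3K27ac (orange), H3K4me1 (green) or GAF (purple) region, by distance to the nearest Zld region (left panel) and by place in the order of mean rank (right panel, best on the left). Points are shares and bars exact binomial 95% intervals. H3K27ac goes down along both axes, with 59.2%, 38.3% and 20.4% by distance, and GAF and H3K4me1 have intervals that overlap throughout.

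Members were less often near gene ends. The midpoint lay no more than 500 bp from a protein-coding gene's end at 46 members, or 24.9% (18.8% to 31.7%), against 39.9% (38.8% to 41.0%) of stretches with Zld and 39.6% of all. With reweighting to the members' widths, stretches with Zld had 37.1%. In 3 sets of 1 list per factor the difference was −16.6 ± 2.58 points (SD, n = 3), and no test over libraries applies to gene positions. These sets have larger groups of members, 586, 644 and 661, so this SD is not the spread of the shares above. Members in a protein-coding gene numbered 120, or 64.9%, against 74.4% of stretches with Zld and 74.2% of all. Exon, intron and strand were not analysed here. Of the 65 outside, 19 were over 10 kb from any protein-coding gene. The marks moved with gene ends: H3K27ac overlapped 63.0% of the 46 members near a gene end and 35.3% of the other 139, against 77.3% and 38.7% of stretches with Zld near and away from one.

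The members overlapped 121 protein-coding genes, 5 of them more than once. Gprk2, a G protein-coupled receptor kinase gene, had 3 members. Pez, btsz, mub and da, the gene of the bHLH partner Daughterless, had 2 each. In da, a gene of 5124 bp, the members were 2L:10388409-10388555 and 2L:10388595-10388822, both in H3K27ac regions, and the percentiles of the pair are the same for Cad, Dl and Twi. Pez was overlapped by no four-factor stretch with Zld.

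Within 10 kb of a member lay 680 of 13922 protein-coding genes, or 4.88%, and within 10 kb of a stretch with Zld 79.1%. Few of the patterning genes outside the segment polarity list, given below, were near a member. None of 13 gap and head gap genes, 9 pair-rule genes, 8 Hox genes, 14 mesoderm genes or 14 neuroectoderm and mesectoderm genes was, though each had a stretch with Zld within 10 kb. Of 17 dorsal ectoderm genes, peb, a zinc finger factor, was within 10 kb of a member, which lay 8682 bp away in Alms1a. The lists hold few genes, so these counts are read beside the 4.88% of all genes. At that share, lists of 8 to 17 genes would also hold few or none, so the counts do not set these lists apart. No test was made.

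Segment polarity and signalling genes had a few. Of 12 segment polarity genes, 4 had a member within 10 kb: hh, H15 (a T-box factor, 3122 bp away), pxb and ci, the transcription factor of Hedgehog signalling. All 12 also had a stretch with Zld. The ci member, 4:51461-51528, is 1 of 2 members on chromosome 4, and had a mean Bcd percentile of 93.5 beside 36.2 for Cad. The pxb member ranked 160th, with a mean Dl percentile of 40.3. Of 16 signalling genes, 4 had one: fz, N, the Notch receptor, Tl, the Toll receptor that acts upstream of Dl (1701 bp away), and aop, an ETS repressor (8861 bp away). The members at N, fz and Tl had no Zld interval in any list, and the Tl member had mean percentiles of 99.4 for Dl and 95.4 for Twi, 74.0 for Bcd and 78.0 for Cad. The N member, in both marks, also lies 5403 bp from kirre, 1 of 17 muscle and neural genes. Tl had 1 stretch with Zld within 10 kb and N had 8.

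In the ribosomal protein and heat shock lists, 2 of 22 ribosomal protein genes (RpL8 and RpL32) and 4 of 14 heat shock genes were within 10 kb of a member. Hsp22, Hsp26 and Hsp67Bc share 1 member, in Klp67A, and Hsp83 had another 469 bp away. No four-factor stretch with Zld lay within 10 kb of Hsp83. Zld was not absent there, since that member had an interval in 2 Zld lists and a Zld region 487 bp away. Genes that lie together share a member, so these counts are not of independent genes.

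Some members had 1 factor far above the mean of the other 3. Those named here ranked between 117th and 182nd, and a second factor could also be high. For Bcd these were 3R:6126702-6126763 in lncRNA:CR43486, with Bcd at 88.3, 88.7 and 88.6 and Cad at 0.31, 24.6 and 20.9, and members in dos and in CG3777 and CG32816. The mean Twi percentile at the CR43486 member was 74.3. For Cad they lay in klar, near CG33253 and near Dyro, the member near CG33253 with Cad at 96.7, 96.3 and 96.3 and Bcd at 50.8, 4.54 and 22.4. Its mean percentiles were 75.3 for Dl and 72.0 for Twi. For Dl they lay near CG7423, at tRNA:Thr-AGT-1-2 in CG12831, and in AGO3, a piRNA pathway Argonaute, with Dl at 98.1, 97.5 and 98.3 and Bcd at 7.51, 74.5 and 79.9. For Twi they lay in asRNA:CR43426, in Gprk1 and 15807 bp from bab1, the last with Twi at 96.4, 95.9 and 96.7 and Dl at 78.1, 20.6 and 15.0. At several of these the other factors' percentiles differed widely between libraries, and some came from near the bottom of a list.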

How the data were processed

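Each of 22 libraries had 1 deposited list of intervals, in narrowPeak layout with no header; the whole cell extract was not used here. The submitters' processing notes name build dm6, cutadapt 2.5, Bowtie2 2.3.5.1 and MACS2 2.2.7.1, with no further settings. In the deposited lists, column 5 is a score, column 7 a fold enrichment (a ratio), columns 8 and 9 −log10 of the p-value and q-value, and column 10 the summit's offset. All of these are the authors' own values. The score was not used, and the p was used to rank within a list. Read depth is unknown, since no list holds read counts, so no interval or floor can be given for a single region. GAF and Zld lists are numbered 1, 3 and 4 in the deposited files where the titles have 1, 2 and 3, so these replicate numbers are uncertain.

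Stretches, overlaps (at least 1 bp), distances and percentiles were computed with Python 3.11.15, numpy 2.4.6, pandas 2.3.3 and scipy 1.17.1, and checked on simulated data. Regions of GAF, Zld and the marks are stretches of at least 50 bp covered in all lists of the group. Genes came from a RefSeq table of the same release, which has no strand or exons. Members named are the 12 best by mean rank, the 5 widest, the 8 strongest in GAF, the 5 best with both marks and with neither, those by the gene lists (10 kb), the 5 genes with most members and, per factor, the 3 with that factor most in excess. The members and gene lists were chosen with earlier results of these data known. The planned motif counts needed a genome sequence, not used here, so they were not run. GAF and mark shares were compared over libraries with exact two-sided sign-flip permutation tests. Alternatives are given in the closing section.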

Additional observations from a re-analysis of the deposited data

Results flagged for a closer look

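Outside the 6 arms, which the members leave out, 96 of 3604 four-factor stretches did not overlap a Zld region. Of these 9 of 271 were on the Y, 1 of 13 on the mitochondrial genome and 86 of 3320 on unplaced sequences. They appear here because this sequence lies outside the comparisons above. Single libraries were not screened for outliers, since groups of 3 and 2 libraries are too small.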

How the results depend on the processing

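Differences below are members minus stretches with Zld, in percentage points, against −34.9 for GAF, −12.0 for H3K27ac, −6.33 for H3K4me1 and −15.0 for gene ends. GAF and gene ends were lower at members under every alternative run; both marks changed direction under some. A minimum width of 200 bp, for Zld regions too, gave 54 members, of which 22 are among the 185 and 32 otherwise count as with Zld (H3K27ac −6.65, H3K4me1 −3.08). No interval in any single Zld list left 42 (GAF −38.2, H3K27ac −8.66, H3K4me1 −7.19, gene ends −20.6). A −log10 q of at least 10 gave 62, of which 35 overlap the 185 (H3K27ac −8.51, gene ends −22.1), and the 20000 strongest intervals 79, of which 37 do (H3K27ac −0.85, H3K4me1 −2.41). Accepting 2 of 3 lists gave 432 (H3K27ac −17.5, H3K4me1 −7.90). Replicate 1 lists gave 586 (GAF −31.7, H3K27ac −22.9, H3K4me1 −8.66, gene ends −19.3), replicate 2 lists 644 (GAF −33.0, H3K27ac −20.8, H3K4me1 −8.93) and replicate 3 lists 661 (GAF −30.3, H3K27ac −19.4, H3K4me1 −7.44). Overlap by the midpoint gave GAF −33.2, H3K27ac +4.33 and H3K4me1 −0.70. Stretches of 200 to under 400 bp gave GAF −36.8, H3K4me1 −1.48 and gene ends −34.1. The following were chosen after seeing the data. Reweighting to the members' widths gave GAF −24.6, H3K27ac −2.19, H3K4me1 +0.44 and gene ends −12.2, to their mean percentiles GAF −28.9, H3K27ac +0.73, H3K4me1 −0.68 and gene ends −10.5, and to both GAF −25.5, H3K27ac −0.48, H3K4me1 +0.35 and gene ends −10.7. Away from gene ends, GAF was −40.2, H3K27ac −3.50 and H3K4me1 −7.89. Members sharing no interval with a stretch with Zld gave GAF −38.0, H3K27ac −18.6 and H3K4me1 −7.19. Leaving out 1 list at a time gave 139 to 286 members (286 without Dl replicate 2), GAF −37.0 to −32.7, H3K27ac −15.5 to −9.74, H3K4me1 −10.5 to −4.52 (−10.5 without H3K4me1 replicate 2) and gene ends −21.9 to −10.8. The causes were not tested. No paired analysis was possible because the results come from interval overlap, with no fit to which a replicate block could be added. Depth is unknown and limits which weak Zld and GAF intervals were called.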
